A study of Mus musculus with 6 samples.

Results

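Genes known for their work at the surface of T cells were followed in mouse bone marrow cells carrying the fusion oncogene MLL-AF9, with the transcriptional cofactor gene Mn1 deleted or intact. The set names 9 genes: the glycoprotein gene Thy1, the adaptor genes Lat, Lat2 and Lcp2, the costimulatory receptor gene Cd28, the receptor chain gene Cd3e, the kinase genes Lck and Zap70, and Trgv4, which belongs to the variable segments at the gamma chain locus of the T cell receptor. Members were all probe sets whose platform annotation names exactly 1 gene out of these 9, which gave 16 probe sets of 8 genes among 45037 probe sets and 18193 named genes in all. Lck was not analysed here. The genes were chosen with their differences between the groups already known, so the differences of the members are given as a description and without a test.

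The deleted cells carried MLL-AF9 and a deletion of Mn1 made with CRISPR-Cas9 (MLL-AF9/Mn1null, 3 arrays), and the cells with the intact gene carried MLL-AF9 alone (MLL-AF9/Mn1wt, 3 arrays). Both groups were sorted mouse bone marrow cells that had received a control vector for the green fluorescent protein EGFP, and both grew in medium with mouse interleukin 3, human interleukin 6 and mouse stem cell factor. Strain, age, sorting gate and the number of cell lines or clones are not stated in the sources used, and neither is whether the replicates were separate cultures or separate animals. Every p-value below therefore reflects the spread among these 6 samples alone, and that spread could be technical.

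In a T cell, the antigen receptor passes its signal through the CD3 chains, whose tyrosines are phosphorylated by LCK and then bound by the kinase ZAP70. ZAP70 phosphorylates the membrane adaptor LAT and the cytosolic adaptor encoded by Lcp2, which together assemble the enzymes that start calcium and RAS signalling, and CD28 adds a costimulatory signal. Several of these parts also work outside T cells: mast cells use LAT, LAT2 and the Lcp2 product behind the high-affinity receptor for immunoglobulin E, LAT2 is typical of B and myeloid cells, and THY1 marks mouse T cells as well as some progenitor and mast cells.

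The 300 bases around the start sites of Lat and Lcp2 are shown because these adaptors act in one complex and differed in opposite directions. They come from RefSeq (build GRCm38.p6), run from 250 bases before to 50 bases after the start, and are written 5′ to 3′ on the strand of the gene. Entries were found for 5 of the 9 genes. Capitals mark matches, on either strand, to a GATA motif (GATAA), a RUNX motif (TGTGGT) and an ETS motif (AGGAAG).
Lat, chr7:126369519-126369818, minus strand: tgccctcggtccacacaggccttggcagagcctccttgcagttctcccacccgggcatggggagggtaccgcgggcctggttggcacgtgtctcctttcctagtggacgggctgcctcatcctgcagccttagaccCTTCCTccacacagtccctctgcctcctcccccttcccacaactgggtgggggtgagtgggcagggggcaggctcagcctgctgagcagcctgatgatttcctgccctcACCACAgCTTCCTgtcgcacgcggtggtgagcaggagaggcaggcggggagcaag
Lcp2, chr11:34046678-34046977, plus strand: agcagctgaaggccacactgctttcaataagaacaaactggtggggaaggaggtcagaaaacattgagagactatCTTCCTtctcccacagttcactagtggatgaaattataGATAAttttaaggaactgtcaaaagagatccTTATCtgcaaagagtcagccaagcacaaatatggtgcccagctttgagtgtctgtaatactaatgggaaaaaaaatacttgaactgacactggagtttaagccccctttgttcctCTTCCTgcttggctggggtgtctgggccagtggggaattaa
The Lat window held 1 RUNX match, 5 bases before the start, and 2 ETS matches, 114 bases before and 2 bases after it. The Lcp2 window held 2 GATA matches, 137 and 106 bases before the start, and 2 ETS matches, 175 bases before and 9 bases after it. No matches of these motifs overlapped each other in either window. Of 32851 such windows in the same table, 25.4% held the GATA letters, 16.8% the RUNX letters and 35.4% the ETS letters, so all of these matches are common.

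Each value is a log2 expression level of 1 probe set that the authors obtained with RMA, which levels the arrays and presses low signals towards a floor. Array medians lay between 5.16 and 5.22, arrays within a group correlated at 0.997 to 0.998 across genes, and arrays of different groups at 0.968 to 0.969. Tests used probe sets, or genes, whose mean over the 6 arrays reached the 30th percentile of the table (log2 4.07, called the filter level here). Mn1 itself stood close to that level, at 4.13 ± 0.071 in Mn1null and 4.35 ± 0.20 in Mn1wt (SD, n = 3 each), a difference that limma did not call (-0.22, adjusted p = 0.121) except without Mn1wt replicate 2 (-0.33, adjusted p = 0.00726). The place of this probe set relative to the deletion is not stated in the sources used, and so it does not check the labels. The bacterial transcripts added as labelling controls also differed between the groups, with 8 of 8 of their 5′ probe sets apart and means of 6.47 in Mn1null and 7.32 in Mn1wt (difference -0.85), and the part of this in the results below was not tested.

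The members split into genes that stood far higher in Mn1null (Trgv4, Thy1, Lat), one that stood far lower (Cd28), adaptors that differed by less than 2-fold in opposite directions (Lat2 and Lcp2) and receptor-proximal genes that barely differed (Cd3e, Zap70). Of the 16 probe sets, 14 passed the filter on low signal, and 2 lay under it in both groups. The 3 Mn1null arrays did not overlap with the 3 Mn1wt arrays for 11 of the 14, 6 of them higher and 5 lower. Across all 31526 probe sets tested, 52.3% did not overlap. The limma fit over all of these put 5 of the 14 past its threshold upward, where 19.3% of all probe sets were, and 4 downward, where 22.2% were. Since the genes were chosen on this contrast, and both Cd28 probe sets passed the filter through their Mn1wt signal, nothing is read from these counts.

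**Figure D1:**
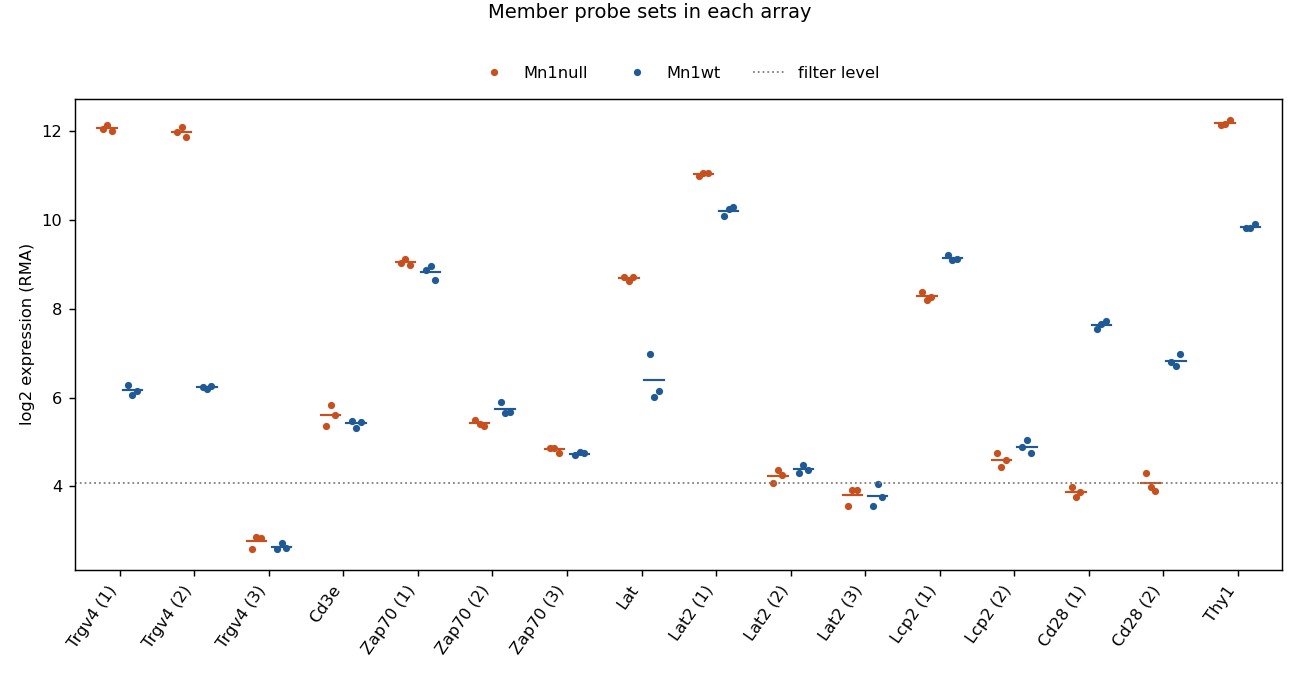
Log2 expression (RMA) of the 16 member probe sets in each array, numbered within a gene from its brightest, with Mn1null (orange) left of Mn1wt (blue); dots are arrays, short lines are group means (n = 3 each) and the dotted line is the filter level of 4.07. The 2 bright Trgv4 probe sets stand at 11.86 to 12.15 in Mn1null and at 6.06 to 6.27 in Mn1wt, and both Cd28 probe sets have means under the filter level in Mn1null only.

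Among the receptor chains, Trgv4 had the widest gap of all members. Its brightest probe set read 12.06, 12.15 and 12.00 in Mn1null, against 6.27, 6.06 and 6.15 in Mn1wt. The means were 12.07 ± 0.075 in Mn1null and 6.16 ± 0.11 in Mn1wt (SD, n = 3 each), a difference of 5.91 ± 0.076 (SE) or 60.2-fold, and the arrays within each group lay close together. Only 10 of the 31526 probe sets tested had a larger absolute difference. The next brightest read 11.98, 12.09 and 11.86 in Mn1null, against 6.24, 6.20 and 6.27 in Mn1wt, a difference of 5.74 ± 0.069.

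The third Trgv4 probe set showed none of this. It read 2.59, 2.85 and 2.83 in Mn1null, against 2.59, 2.73 and 2.61 in Mn1wt, so that the groups overlapped and all 6 arrays were under the filter level. By the maker's suffixes, the brightest and the third read several transcripts of 1 gene, and the next brightest holds probes that also match other transcripts. The segments of this locus are related in sequence, and whether the bright probe sets read Trgv4 alone was not tested. Trgv1, the nearest gene after Trgv4 in the RefSeq order that has a probe set, read 4.14 ± 0.042 in Mn1null and 4.22 ± 0.055 in Mn1wt, a difference limma did not call (-0.09, adjusted p = 0.214). Amph, the nearest before it, lay under the filter level in both groups (3.38 in Mn1null and 3.19 in Mn1wt).

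Cd3e, which encodes the epsilon chain of CD3, did not separate the groups. It read 5.36, 5.83 and 5.61 in Mn1null, against 5.48, 5.32 and 5.45 in Mn1wt. The groups overlapped, since the lowest Mn1null array lay within the range of Mn1wt, and the mean difference of 0.18 ± 0.14 (SE) was close to its error.

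Zap70, the kinase that binds phosphorylated CD3 chains, had 3 probe sets that did not point one way. The brightest read 9.04, 9.12 and 8.99 in Mn1null, against 8.87, 8.97 and 8.66 in Mn1wt. The difference of 0.22 ± 0.099 (SE) was smaller than the range of the Mn1wt arrays, although the groups did not overlap. The second was lower, at 5.49, 5.41 and 5.36 in Mn1null, against 5.90, 5.66 and 5.68 in Mn1wt, a difference of -0.33 ± 0.086. The third differed by 0.09 with overlapping groups. No direction can be given for Zap70 as a gene.

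Lat, the membrane scaffold phosphorylated by ZAP70, read 8.72, 8.64 and 8.71 in Mn1null, against 6.99, 6.02 and 6.16 in Mn1wt. The groups did not overlap and the mean difference was 2.30 ± 0.30 (SE), or 4.92-fold. Mn1wt replicate 1 stood above the other 2 arrays of its group, so that the SD was 0.043 in Mn1null and 0.52 in Mn1wt, and the Mn1wt SD was the widest of any member. With each array left out in turn the difference lay between 2.11 and 2.60, and 2.60 was the value without Mn1wt replicate 1.

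Lat2, a related adaptor of B, mast and myeloid cells, was higher by less. Its bright probe set read 10.99, 11.05 and 11.07 in Mn1null, against 10.09, 10.25 and 10.30 in Mn1wt, a difference of 0.82 ± 0.068 (SE) or 1.77-fold, with no overlap. The other 2 Lat2 probe sets were near the filter level and overlapped between the groups, with differences of -0.15 (the brighter) and 0.02 (the dimmer).

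Lcp2, the cytosolic partner of LAT, was lower in Mn1null. The bright probe set read 8.37, 8.19 and 8.27 in Mn1null, against 9.21, 9.10 and 9.12 in Mn1wt. The difference was -0.87 ± 0.062 (SE), or 1.82-fold, and every Mn1null array lay below every Mn1wt array. The dimmer probe set was lower too, at 4.75, 4.43 and 4.59 in Mn1null, against 4.89, 5.05 and 4.76 in Mn1wt. Its groups were separated by only a small gap, and its difference was -0.31 ± 0.12.

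Cd28, the receptor of the costimulatory ligands CD80 and CD86, had group means under the filter level in Mn1null and well above it in Mn1wt. The probe set with the brighter mean read 3.97, 3.75 and 3.86 in Mn1null, against 7.54, 7.66 and 7.72 in Mn1wt, a difference of -3.78 ± 0.082 (SE) or 13.7-fold. The other read 4.30, 3.99 and 3.90 in Mn1null, against 6.81, 6.70 and 6.97 in Mn1wt, a difference of -2.76 ± 0.14. Both probe sets separated the groups widely, with Mn1null means of 3.86 and 4.06, and 1 Mn1null array read above the filter level on the dimmer probe set. Of all probe sets tested, 68 had a larger absolute difference than the brighter one.

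Raph1, an actin regulator gene and the nearest gene before Cd28 with a probe set, also fell, to 6.46 ± 0.18 in Mn1null, against 7.78 ± 0.095 in Mn1wt (SD, n = 3 each; difference -1.32, adjusted p = 4.5e-05). Ctla4, the inhibitory receptor gene on the other side of Cd28, was under the filter level in both groups (3.93 in Mn1null and 3.79 in Mn1wt). Of the 18 nearest neighbours of the 9 genes, a comparison added after the values were seen, 13 were tested and 5 were called in either direction, and Raph1 was the only one with a 2-fold difference. Over all 14680 genes tested, 23.2% were called higher and 25.6% lower. Calls of at least 2-fold numbered 554 higher and 338 lower among all genes, so nothing is read from the counts of neighbours.

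Thy1, the surface glycoprotein used to recognise mouse T cells, was bright in both groups and brighter in Mn1null. It read 12.13, 12.16 and 12.26 in Mn1null, against 9.81, 9.82 and 9.90 in Mn1wt. The groups did not overlap, and the difference of 2.34 ± 0.048 (SE), or 5.06-fold, was many times the SD of 0.065 in Mn1null and 0.051 in Mn1wt. Its neighbours Nectin1 (-0.04, adjusted p = 0.826) and Usp2 (0.14, adjusted p = 0.196) were not called.

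**Figure D2:**
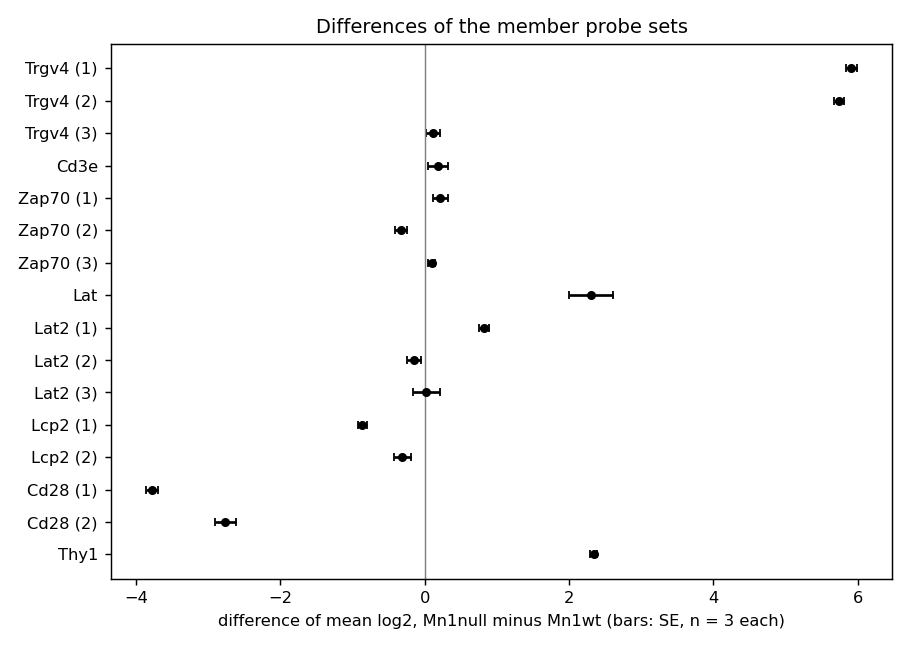
Difference of mean log2 expression, Mn1null minus Mn1wt, for each member probe set, numbered within a gene from its brightest; bars are the SE (n = 3 each). The 2 bright Trgv4 probe sets lie close together (5.91 and 5.74), those of Cd28 lie apart on the same side of 0 (-3.78 and -2.76), and those of Zap70 and Lat2 lie on both sides of 0.

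Genes with the most similar pattern over the 6 arrays were listed for the pair of genes with the widest gaps, by the Euclidean distance between values centred on each gene's own mean. Those nearest to Trgv4 were Fndc3c1 (distance 0.668), the desmosomal cadherin gene Dsc2 (0.741) and the transcription factor gene Dmrta2 (0.868), with differences of 6.07, 5.34 and 5.22. Those nearest to Cd28 were Tctex1d1 (distance 0.178), the actin-binding protein gene Cnn3 (0.209) and Bcat1 (0.233), which encodes an aminotransferase of branched-chain amino acids, with differences of -3.75, -3.86 and -3.71. The likeness rests mainly on the gap between the groups, since the arrays within a group differ little.

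Most of the T cell surface markers measured, with the members left out, lay under the filter level. The list names 16 genes, of which 12 had a probe set naming exactly 1 gene. Of 12 T cell surface marker genes measured, 7 were under the filter level, among them the CD3 chain genes Cd3g (3.32 in Mn1null and 3.39 in Mn1wt) and Cd247 (3.65 in Mn1null and 3.60 in Mn1wt), the receptor alpha locus Tcra (3.05 in Mn1null and 3.00 in Mn1wt), Cd2 (3.73 in Mn1null and 3.81 in Mn1wt), Cd5 (3.85 in Mn1null and 4.18 in Mn1wt), Cd8b1 (3.71 in Mn1null and 3.61 in Mn1wt) and the homing receptor gene Ccr7 (3.97 in Mn1null and 4.16 in Mn1wt). Of the 5 tested, 0 rose by limma (also 0 at an unadjusted p under 0.05) and 1 fell, where 23.2% of the 14680 genes tested rose and 25.6% fell. The gene that fell was Il7r, the interleukin 7 receptor, at 3.99 in Mn1null and 4.35 in Mn1wt (-0.36, adjusted p = 0.00358), and it passed the filter through its Mn1wt signal. Cd4 (difference -0.01, adjusted p = 0.921) and Cd8a (6.43 in Mn1null and 6.40 in Mn1wt, adjusted p = 0.736) were above the filter level without a call, as were Cd3d (4.64 in Mn1null and 4.60 in Mn1wt) and Cd6 (4.48 in Mn1null and 4.47 in Mn1wt). The mean log2 level of the 12 markers lay between 4.15 and 4.30 in Mn1null and between 4.27 and 4.33 in Mn1wt. The members, Thy1, Trgv4, Lat, Zap70, Cd3e and Cd28 among them, are not part of these 12 markers, which hold no gamma or delta chain gene. Some members read far above the filter level in both groups. Examples are Thy1 (12.18 in Mn1null and 9.84 in Mn1wt) and the brightest probe set of Zap70 (9.05 in Mn1null and 8.83 in Mn1wt). As far as these markers go, the name of the gene set is that of the genes' best known cell type and not of cells identified in these samples. In bulk samples, fewer cells of a type and less RNA per cell cannot be told apart.

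**Figure D3:**
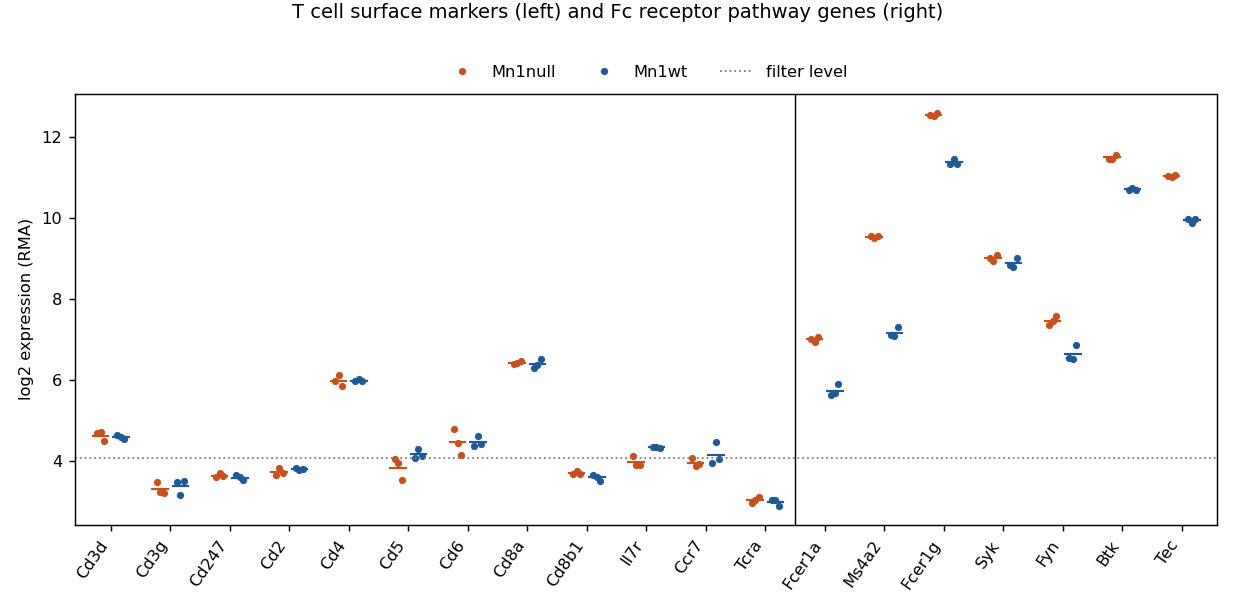
Log2 expression (RMA) in each array of the 12 T cell surface markers (left of the line) and of 7 genes of the Fc epsilon receptor pathway (right), with Mn1null (orange) left of Mn1wt (blue), group means as short lines (n = 3 each) and the filter level of 4.07 dotted. Of the T cell markers, 7 have a mean under the dotted line, while the receptor genes Fcer1a, Ms4a2 and Fcer1g are higher in Mn1null without overlap.

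Of 20 other receptor chain and CD3 genes listed, only 6 had a probe set naming exactly 1 gene, so the rest were not read. Of these 6, 3 passed the filter, 2 rose and 0 fell by limma (also 0 at an unadjusted p under 0.05). The median difference was 0.33, against -0.01 over all genes tested, of which 23.2% rose and 25.6% fell. Trbv13-2, a beta chain variable segment, rose by 1.15 ± 0.14 (SE) to 5.42 ± 0.21 in Mn1null, against 4.26 ± 0.22 in Mn1wt (SD, n = 3 each, adjusted p = 4.73e-04). Ptcra, the pre-T cell receptor alpha chain, rose by 0.33 ± 0.092 (adjusted p = 0.0204), and this call was lost without Mn1wt replicate 3 (0.29, adjusted p = 0.0623). At a filter of the 50th percentile of signal both genes dropped out.

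Kinases, phosphatases and adaptors next to the T cell receptor moved in both directions. There were 7 rises and 10 falls among the 31 tested, where 23.2% of all genes tested rose and 25.6% fell. The median difference was -0.01 in the list and -0.01 over all genes tested. Fyb, an adaptor that binds the Lcp2 product, rose by 2.01 ± 0.086 (SE) to 9.34 ± 0.068 in Mn1null, against 7.32 ± 0.16 in Mn1wt (adjusted p = 3.77e-06), and its other probe set gave 1.75. The kinase gene Tec rose by 1.09 ± 0.048 (adjusted p = 4.09e-06). Grap, an adaptor of the GRB2 family, fell by 1.46 ± 0.11 (adjusted p = 4.97e-05), to 4.19 ± 0.21 in Mn1null, near the filter level. Pag1, a membrane adaptor that recruits the inhibitory kinase CSK, fell by 0.91 ± 0.063 (adjusted p = 3.34e-05), while its other probe sets gave 0.07, -0.15 and -0.10. Csk, Ptprc, Vav1 and Cbl did not pass the test.

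Genes of the Fc epsilon receptor pathway, through which mast cells use the same adaptors, rose more often than they fell. Of 17 tested, 9 rose and 3 fell (median difference 0.38). Over all 14680 genes tested 23.2% rose and 25.6% fell, and these shares stand beside each list count below. Of the rises, those of Fyn, Tec and Grb2 are also counted in the list before, and those of Ms4a2 and Fcer1a among the mast cell markers below. All 3 receptor chains rose: Ms4a2, the beta chain, by 2.37 ± 0.071 (SE) to 9.55 ± 0.025 in Mn1null, against 7.18 ± 0.13 in Mn1wt (adjusted p = 8.83e-07), Fcer1a by 1.27 and the shared gamma chain Fcer1g by 1.17. Of the kinases, Btk rose by 0.79 and Fyn by 0.83, while Syk, the relative of ZAP70, did not pass the test (0.13, adjusted p = 0.168). The other Syk probe sets gave 0.35, 0.21 and -0.02. The 3 falls were small: Fgr fell by 0.25, Sh3bp2 by 0.19 and Skap2 by 0.20 on the log2 scale. That of Skap2 is uncertain, since its other probe sets gave 0.65 and 0.52 and averaging its probe sets turned the direction (0.32, adjusted p = 0.0012). For Fgr the call did not hold when its probe sets were averaged (-0.10, adjusted p = 0.244), nor without Mn1null replicate 3 (-0.23 with an adjusted p of 0.0516). The call of Sh3bp2 was lost without Mn1wt replicate 1 or 2 or Mn1null replicate 1 or 3 (adjusted p between 0.0513 and 0.0645). Without Mn1null replicate 3, 1 of the 3 falls was left.

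Downstream genes of calcium, RAS and NF-kB signalling rose in 10 and fell in 4 of 20 tested (median difference 0.18). With each array left out in turn, 8 to 11 rose and 3 to 5 fell, and at an adjusted p of 0.01, 7 rose. The small rise of Nfatc2 (0.15) and fall of Ppp3r1 (-0.17) were not called when probe sets were averaged (-0.01 for both, adjusted p = 0.927 and 0.858). The call of Ppp3ca (0.21) was lost without Mn1wt replicate 1 or 2 or Mn1null replicate 3. Rasgrp1, an exchange factor that activates RAS after LAT assembly, rose by 2.91 ± 0.13 (SE) to 7.56 ± 0.23 in Mn1null, against 4.65 ± 0.15 in Mn1wt (SD, n = 3 each, adjusted p = 4.44e-06), with 0.38, 0.18 and 0.79 on its other probe sets. The calcium-responsive factor gene Nfatc1 rose by 0.68 ± 0.043 (adjusted p = 2.14e-05) on its brightest probe set, while its other probe sets gave 0.14, -0.03, 0.19 and -0.10. Dgkz, which removes the lipid that activates RASGRP1, fell by 0.60 ± 0.044 (adjusted p = 4.68e-05), and the calcineurin subunit gene Ppp3cb fell by 0.40 ± 0.047 (adjusted p = 3.59e-04).

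Of 17 tested genes of the CD28 family, costimulation and the SLAM receptors, 6 rose and 1 fell (median difference 0.13), and 7 measured genes lay under the filter level, Ctla4 and Pdcd1 among them. Ligands of inhibitory receptors were among the rises: Pdcd1lg2 rose by 2.41 ± 0.091 (SE) to 6.99 ± 0.15 in Mn1null, against 4.58 ± 0.11 in Mn1wt (adjusted p = 2.36e-06), and Cd274 by 1.44. Cd48, a GPI-linked SLAM family member, rose by 2.13 ± 0.059 (adjusted p = 6.49e-07). The CD28 ligand gene Cd80 rose by 0.46 at a low level (5.01 in Mn1null and 4.55 in Mn1wt), and Cd86 was under the filter level. The other Cd80 probe sets gave 0.13, 0.20 and -0.09. Ly9 fell by 0.68 ± 0.17 (adjusted p = 0.0154), and without Mn1null replicate 3 the count of falls was 2.

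Regulators of the T lineage and of receptor gene recombination rose in 7 and fell in 3 of 22 tested (median difference 0.05). Zbtb16, a zinc finger factor of innate-like T cells, rose by 1.70 ± 0.076 (SE) to 9.28 ± 0.12 in Mn1null, against 7.59 ± 0.090 in Mn1wt (adjusted p = 4.65e-06), and the homeobox gene Hhex by 0.68 ± 0.045 (adjusted p = 2.81e-05). Ikzf1, the lymphoid and myeloid regulator Ikaros, fell by 0.55 ± 0.053 (adjusted p = 1.51e-04). Foxp3, the factor of regulatory T cells, fell by 0.30 ± 0.078 at a low level (4.59 in Mn1null and 4.89 in Mn1wt, adjusted p = 0.0159), a call lost without Mn1wt replicate 1 (adjusted p = 0.0544). The T cell factor gene Bcl11b (4.73 in Mn1null and 4.80 in Mn1wt) was not called, and Gata3 and Rag1 were under the filter level in both groups.

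Other surface genes of the kind of Thy1, held by a GPI anchor or of the LY6 family, also moved in both directions, 6 rising and 3 falling of 14 tested (median difference 0.06). Of these calls, 5 rises and 1 fall were at least 2-fold. The largest rise was that of Cd59a (3.13, with 2.74 on its other probe set), and Prnp rose by 1.88 (1.49 on its other probe set). Cd52 rose by 1.53 ± 0.045 (SE, adjusted p = 8.61e-07) and Cd48 as given above, whereas Cd24a fell by 1.80 ± 0.058 to 11.15 ± 0.078 in Mn1null, against 12.95 ± 0.052 in Mn1wt (adjusted p = 1.16e-06). Bst1 fell by 0.59 ± 0.099 (adjusted p = 0.0022) to 4.04 in Mn1null, against 4.63 in Mn1wt, so it passed the filter through its Mn1wt signal. With the filter at the 50th percentile it was not tested.

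Markers of other cell types were read in the same arrays. Mast cell and basophil markers rose in 6 and fell in 1 of 11 tested (median difference 0.55), and their mean log2 level over 12 genes lay between 8.20 and 8.23 in Mn1null and was at most 7.02 in Mn1wt. Hdc (4.56) and the carboxypeptidase gene Cpa3 (4.13) had the largest rises of that list, while the mast cell protease genes Tpsb2, Tpsab1 and Cma1 were not called and Mcpt4 was under the filter level. Kit fell by 0.17, a call lost, among others, with quantile normalization (adjusted p = 0.0821). The part of these cells in the differences of Lat, Lat2 and Thy1 was not tested. Of 9 NK and innate lymphoid markers tested, Nkg7 (1.62) and Klrk1 (0.19) rose and 0 fell by limma (also 0 at an unadjusted p under 0.05). Klrk1 lay near the filter level (4.24 in Mn1null and 4.05 in Mn1wt) and passed it through its Mn1null signal. The call of Klrk1 was lost with an intensity trend (adjusted p = 0.178) and without Mn1wt replicate 1 or 3 or Mn1null replicate 2 or 3 (adjusted p between 0.0524 and 0.0681). Of 9 B cell markers, Vpreb1 rose (0.81) and Cd79b fell (-0.91). Of 9 plasmacytoid dendritic cell markers, 2 rose and 3 fell, while Siglech was not called. The rises were those of Bst2 (0.31, adjusted p = 0.0048) and Cd209d (0.24), and among the falls Irf8 fell by 1.79 and Tcf4 by 1.05. Cd209d passed the filter through its Mn1null signal (4.22 in Mn1null and 3.97 in Mn1wt). Its call was lost, among others, without a filter (adjusted p = 0.0563). Of 12 general blood and myeloid markers, 6 rose and 4 fell, with 2 falls without Mn1wt replicate 2 or Mn1null replicate 3. With each array left out in turn only 4 to 5 rose, and the small rises of Spi1 (0.19) and Spn (0.19) were among the calls lost. Csf1r, the receptor of macrophage colony-stimulating factor, fell to 6.93 in Mn1null, against 8.43 in Mn1wt (2.83-fold, adjusted p = 2.98e-05), with log2 differences of -0.95 and -0.41 on its other probe sets. The integrin gene Itgam rose by 0.84, the progenitor surface gene Cd34 by 0.79 and Cd33 by 0.69, while the protease gene Ctsg fell by 0.27. Ptprc (11.57 in Mn1null and 11.54 in Mn1wt), Mpo (14.11 in Mn1null and 13.84 in Mn1wt) and Elane (12.78 in Mn1null and 12.72 in Mn1wt) were bright in both groups. Mpo was called higher by limma (0.28, adjusted p = 0.00125), and Ptprc and Elane were not called.

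**Figure D4:**
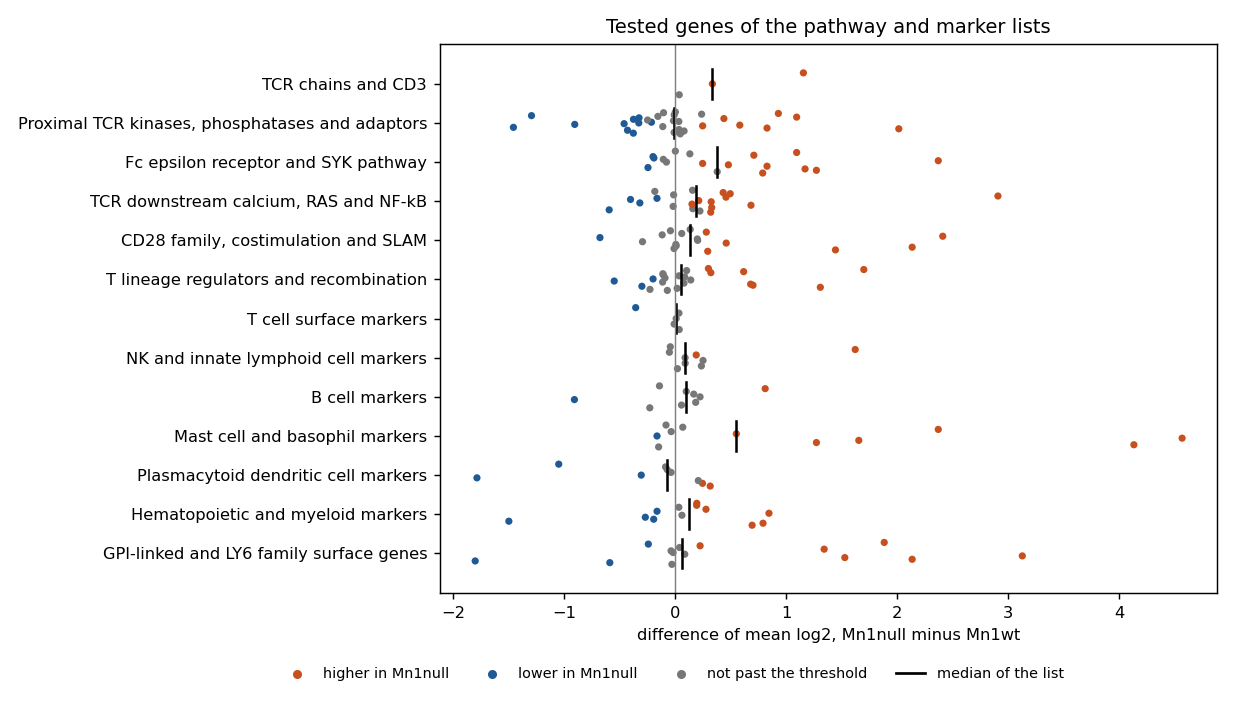
Difference of mean log2 expression, Mn1null minus Mn1wt, for each tested gene of the 13 pathway and marker lists, coloured by limma's call at an adjusted p of 0.05; black lines are list medians, and the members are left out. The T cell surface markers lie close to 0, while mast cell and basophil markers and Fc epsilon receptor pathway genes reach the right side.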

How the data were processed

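RNA from 3 samples of MLL-AF9/Mn1null and 3 of MLL-AF9/Mn1wt bone marrow cells was hybridised to 1-colour Affymetrix arrays. The authors deposited log2 expression for each probe set, and the submitters' processing notes name RMA. RMA equalises the arrays, so overall differences in RNA amount are removed; its version is not stated in the sources used. Of 45101 probe sets, 64 controls were left out; of the other 45037, 34945 name 1 gene, 932 several and 9160 are not listed in the platform annotation. Groups come from the sample titles.

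Groups were compared as Mn1null minus Mn1wt with limma 3.58.1 in R 4.3.3, 2-sided, without a block, with Benjamini-Hochberg adjustment and a threshold of 0.05, once over 31526 probe sets (members) and once over 14680 genes, each read by its brightest probe set (lists). Probe sets or genes under the 30th percentile of mean signal (4.07) were left out. The number of arrays limits the precision. Members and lists were chosen with earlier results of these data known. The text names all members, Mn1, every T cell surface marker, from each list at most 2 rises and 2 falls, those of smallest p with groups that do not overlap, and the 3 genes most like each of the 2 members with the largest differences; other genes and the neighbours were singled out after their values were seen. The 13 lists name 230 genes, of which 193 were measured and 165 tested, and are described by counts and medians only. Some genes stand in several lists, so the list counts are not independent. The steps were tested on simulated data. Alternatives were other filters, rules for probe sets, quantile normalization, median centring, an intensity trend, array weights, a replicate block, a stricter threshold (0.01) and leaving out single arrays.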

Additional observations from a re-analysis of the deposited data

Results flagged for a closer look

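A probe set that the annotation names for Trgv4 and Trgv2 together was left out of the comparisons because it names 2 genes. It carried a signal well above that of Mn1wt: it read 12.20, 12.13 and 12.25 in Mn1null, against 5.68, 5.87 and 6.11 in Mn1wt, a difference of 6.31 ± 0.13 (SE) without overlap. The bright probe sets named for Trgv4 alone gave 5.91 and 5.74. Which segments these 3 probe sets read was not tested.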

How the results depend on the processing

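The counts of member probe sets past the threshold stayed within 1.5 times of 5 higher and 4 lower under all 28 combinations of count and alternative, with 5 to 6 higher and 3 to 5 lower when each array was left out, and none of the 14 member probe sets that passed the filter turned its sign; the other 2 were not recomputed with arrays left out. All 181 member differences recomputed lay within 1 SD of the value given. Of 416 list counts recomputed, 371 stayed within 1.5 times; the others were small counts, as follows, and the cause was not tested unless fewer genes were tested. With the filter at the 50th percentile, 0 receptor chain genes rose, 0 T cell surface markers fell and 1 NK marker rose. At an adjusted p of 0.01, 1 receptor chain gene and 1 NK marker and 1 plasmacytoid marker rose, while 1 Fc epsilon pathway gene, 0 CD28 family genes, 1 T lineage regulator, 0 mast cell markers and 2 myeloid markers fell. With the mean of the probe sets, 1 Fc epsilon pathway gene, 0 T cell surface markers and 0 mast cell markers fell. With probe sets for 1 transcript only, 1 NK and 1 plasmacytoid marker rose and 0 mast cell markers fell. With quantile normalization, 0 mast cell markers fell. With array weights, 2 B cell markers rose. Without a filter, with quantile normalization, with median centring and with an intensity trend, 1 plasmacytoid marker rose, and with that trend 1 NK marker rose. Leaving out single arrays gave 1 to 2 receptor chain genes rising, 1 to 3 Fc epsilon pathway genes falling, 1 to 2 CD28 family genes falling, 1 to 2 NK markers rising and 0 to 1 falling, 1 to 2 B cell markers rising and 1 to 2 falling, 0 to 1 mast cell markers falling, 1 to 2 plasmacytoid markers rising and 2 to 3 myeloid markers falling. Mn1 differed by -0.33 to -0.15 in the same way, and passed without Mn1wt replicate 2.

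Samples with the same replicate number did not deviate together throughout (correlations of -0.04, 0.11 and 0.08 for numbers 1, 2 and 3; 1 of 3 correlated best with its own number), so the numbers were not taken as pairs. With the replicate block, 1 receptor chain gene rose, 2 CD28 family genes fell and 1 plasmacytoid marker rose, and the genes called in all numbered 6943, against 7170 without it. Low signals, such as those of Cd28 in Mn1null, limit how far a difference can be read.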
